A study of Homo sapiens with 38 samples.

Results

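Guides with no intended human target and guides to olfactory receptor genes were followed through the CRISPR/Cas9 screens of Hep3B and SNU-398 cells. They were chosen by the gene field of the guide tables. It was LacZ, luciferase or EGFP for the controls and an olfactory receptor symbol for the others. In Hep3B this gave 132 control guides and 1238 guides to 337 olfactory receptor genes, 1370 of 66890 guides in all. In SNU-398 it gave 135 control guides and 1232 guides to 338 olfactory receptor genes, 1367 of 66582 guides in all. Both tables held 128 of the control guides and 1197 of the olfactory receptor guides.

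Hep3B and SNU-398 are established human hepatocellular carcinoma cell lines. Both carried Cas9 in all groups and received a genome-wide pooled guide library at a low dose of virus, so that most cells held a single guide. Cells were harvested before treatment (T0) or were then grown for 14 days with vehicle or with 1 of 6 inhibitors at mildly inhibitory doses. Sorafenib, Regorafenib and Lenvatinib inhibit several kinases, Erastin induces ferroptosis, and Abemaciclib and Palbociclib inhibit CDK4 and CDK6. The labels name a further group only as T1, and it was read as the vehicle group because every other group is named for T0 or an inhibitor. Each line had 8 groups of 2 libraries, and nothing in the labels says that the libraries of a group came from separate cultures, so their spread may be technical.

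LacZ is a bacterial gene, luciferase comes from the firefly and EGFP from a jellyfish, so guides to them have no intended target in the human genome. They are meant to show what happens to a guide without a cut. The paper lists EGFP among the fluorescent tags of its lentiviral vectors. Whether the screened cells carried EGFP, and so whether EGFP guides cut there, was not tested here. Olfactory receptors are G protein-coupled receptors of sensory neurons in the nose. A guide to such a gene cuts the genome of a liver cell without removing a gene the cell needs, and so serves as a control for the cut itself. In a pooled screen the count of a guide stands for the number of cells that carry it, which changes through growth and through sampling at each passage.

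The control guides lie along their targets and some share sequence with a neighbour. Over both tables there were 95 LacZ guides between positions 23 and 3038 of their target, 23 luciferase guides between positions 45 and 1632, and 21 EGFP guides between positions 26 and 690. Of neighbouring guides on the same target, 43 pairs overlapped on LacZ, 9 on luciferase and 11 on EGFP. Guides are named here by their target and by their rank in T0 abundance on that target, so that LacZ guide 1 is the most abundant LacZ guide at T0.

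Library totals ran from 11198022 to 46376708 counts in Hep3B and from 11558112 to 46043970 in SNU-398. Even numbers made up 77.2% to 97.4% of the nonzero values of a library, so a printed count need not be a number of independent reads, and intervals cover counting error only. Replicate 2 of the SNU-398 Erastin group stood apart from the other SNU-398 libraries. Over the 1197 olfactory receptor guides held by both tables, its median correlation with the 16 Hep3B libraries was 0.96, against 0.90 to 0.93 for the other 15 SNU-398 libraries. For each comparison, counts of called guides in SNU-398 are therefore given with and without it, while further tallies of calls include it unless stated.

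Most control guides were rare before treatment began. The median T0 count, taken as the mean of both T0 libraries, was 24.25 for control guides, 24 for olfactory receptor guides and 30 for all guides in Hep3B. In SNU-398 these medians were 25, 27.5 and 34. A T0 count of at least 200 was reached by 36 of 132 control guides (27.3%) and 335 of 1238 olfactory receptor guides (27.1%) in Hep3B, beside 30.3% of all guides. In SNU-398 it was reached by 41 control guides (30.4%) and 332 olfactory receptor guides (26.9%), again beside 30.3% of all guides.

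A small part of the guides held most of the counts. The 13 most abundant of the 132 control guides held 79.6% of their T0 counts in Hep3B, and the 14 most abundant of 135 held 80.8% in SNU-398. The 124 and 123 most abundant olfactory receptor guides held 84.0% of theirs in each line. LacZ guide 1, which begins at position 2929 of LacZ, had a mean T0 count of 27751.5 in Hep3B and 28527.5 in SNU-398. It alone held 38.6% to 46.5% of all control counts in a library. The same guides were abundant in both lines, with a correlation of T0 abundance of 0.99 over the 128 shared control guides and 0.99 over the 1197 shared olfactory receptor guides.

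The control guides took a larger share of the counts after 14 days than at T0 in every library. In Hep3B their share was 0.178% and 0.176% in the T0 libraries, 0.211% and 0.205% with vehicle, and 0.209% to 0.260% over the 12 inhibitor libraries. The corresponding shares in SNU-398 were 0.188% and 0.190%, 0.213% and 0.211%, and 0.205% to 0.231%. No later library overlapped T0 in either line, and the highest share of a single library was that of a Sorafenib library in both.

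Relative to T0, the control share was 1.17 times as large with vehicle and 1.30 times as large at the median of the inhibitor libraries in Hep3B, and 1.12 and 1.13 times as large in SNU-398. A share is a sum led by its most abundant guides, and the median control guide, given below, did not rise with every inhibitor. Without LacZ guide 1 the control share ranged from 0.102% at T0 to 0.152% in the highest inhibitor library in Hep3B, and from 0.110% to 0.140% in SNU-398. The share of olfactory receptor guides moved less with vehicle, from 1.94% and 1.96% at T0 to 1.96% and 1.98% in Hep3B, and from 1.92% and 1.93% to 1.95% in both libraries of SNU-398. With inhibitors it was 2.04% to 2.15% in Hep3B and 1.99% to 2.12% in SNU-398, above both T0 and vehicle in every library.

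The 3 control targets did not move alike. In Hep3B the EGFP share was 0.00706% and 0.00700% before treatment, 0.0112% and 0.0104% in the vehicle libraries and 0.0113% to 0.0184% under inhibitors, a median of 2.21 times T0. The luciferase share in Hep3B was 0.00993% and 0.0101% before treatment, then 0.0113% and 0.0118% in the vehicle libraries and 0.0127% to 0.0224% under inhibitors. In SNU-398 the luciferase share was 0.0112% and 0.0113% at T0 and lower with vehicle, at 0.00931% and 0.00892%. The SNU-398 EGFP share stayed within a narrower range, from 0.00798% and 0.00886% before treatment to 0.00899% and 0.00978% in the vehicle libraries, and 0.00717% to 0.0116% under inhibitors. EGFP guides thus held more of the counts in every later library of Hep3B than at T0, while in SNU-398 the inhibitor libraries lay on both sides of T0.

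Among guides detected at T0, loss after 14 days with vehicle was rarer in the classes of higher T0 count. A guide was counted as lost when it had 0 counts in both libraries of a group. Of control guides with T0 counts of 200 or more, 0 of 36 were lost in every later Hep3B group, which allows a share of up to 8.33% (taken as 3 counts of the total), and 0 of 41 in every SNU-398 group, which allows up to 7.32% on the same rule. Of olfactory receptor guides at this level, 0 of 335 were lost with vehicle in Hep3B, 1 of 335 in each of the groups Sorafenib, Regorafenib, Lenvatinib, Erastin and Abemaciclib, and 0 of 335 with Palbociclib. In SNU-398, 0 of 332 were lost in any group, which allows up to 0.904%. Over all guides at this level, the highest number lost in Hep3B was 192 of 20248 (0.948%), with Abemaciclib.

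The olfactory receptor guides lost from that level in Hep3B were already low with vehicle. OR51F2 guide 2, lost with Sorafenib, had counts of 318 and 200 at T0 and 38 and 32 with vehicle. OR2M4 guide 3, lost with Regorafenib, had 252 and 192 at T0 and 56 and 18 with vehicle, and OR6J1 guide 2, lost with Lenvatinib, had 322 and 186 at T0 and 70 and 36 with vehicle. OR4C5 guide 2 had 402 and 242 at T0 and 46 and 32 with vehicle, and was the guide lost with both Erastin and Abemaciclib. These guides were named after their values were seen.

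Below a T0 count of 200 loss was common. With T0 counts of 20 to under 200, vehicle-treated Hep3B cells had lost 7 of 38 control guides (18.4%, 95% exact Clopper-Pearson interval 7.74% to 34.3%) and 85 of 344 olfactory receptor guides (24.7%, 20.2% to 29.6%), beside 27.1% of all other guides. With inhibitors the lost share was 26.3% to 36.8% for control guides and 35.8% to 43.9% for olfactory receptor guides, beside 37.1% to 45.0% for other guides. It lay above vehicle for all 6 inhibitors in each of these sets. The vehicle libraries of Hep3B each lost nearly the same number, 8 and 9 control guides and 100 and 94 olfactory receptor guides.

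SNU-398 lost fewer guides of this level with vehicle. There 4 of 35 control guides (11.4%, 3.20% to 26.7%) and 45 of 381 olfactory receptor guides (11.8%, 8.75% to 15.5%) were lost, beside 8.80% of other guides. With inhibitors the share ran from 8.57% to 28.6% for control guides and from 8.40% to 29.1% for olfactory receptor guides, with Sorafenib highest for both. With Erastin, 118 olfactory receptor guides were at 0 in replicate 1 and 57 in replicate 2, so the 48 guides (12.6%) at 0 in both were limited by the library that stood apart.

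With T0 counts above 0 and under 20, the larger part of the guides was lost in Hep3B, 38 of 52 control guides (73.1%) and 345 of 524 olfactory receptor guides (65.8%) with vehicle, beside 69.8% of all guides of this level. In SNU-398, 19 of 51 control guides (37.3%) and 160 of 407 olfactory receptor guides (39.3%) were lost, beside 46.1% of all guides. Guides with 0 counts in both T0 libraries did not continue the order in Hep3B. There, vehicle libraries lacked 4 of 6 such control guides, 22 of 35 such olfactory receptor guides (62.9%) and 58.5% of all such guides. In SNU-398 they lacked 6 of 8, 75 of 112 (67.0%) and 63.7%. Of the 22 control guides with T0 counts of 20 to under 200 in both lines, 4 were lost with vehicle in Hep3B and 1 in SNU-398, and that 1 was also lost in Hep3B. Of 214 such olfactory receptor guides, 33 were lost in Hep3B and 10 in SNU-398. Both lines lost 6 of these, 18.2% of those lost in Hep3B and 60.0% of those lost in SNU-398, beside 15.3% and 55.3% over other guides.

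Among guides with T0 counts of 200 or more, the change from T0 to vehicle was small at the median and wide between guides. Changes are differences in log2(CPM + 5), where CPM is counts scaled to a library total of 1e+06, and the pseudocount of 5 understates the change of rare guides. In Hep3B the median change was 0.099 (SD over guides 0.33, n = 36) for control guides and -0.048 (SD 0.41, n = 335) for olfactory receptor guides, beside -0.047 over all guides. In SNU-398 it was 0.094 (SD 0.30, n = 41) for control guides and -0.016 (SD 0.26, n = 332) for olfactory receptor guides, beside -0.022 over all guides. The olfactory receptor median was thus at that of all guides in both lines, and the control median was higher by 0.15 in Hep3B and 0.12 in SNU-398. The control median moved with the T0 count required. At counts of at least 20 it was -0.028 in Hep3B and 0.050 in SNU-398, and at counts of at least 2000 it was 0.38 and 0.22, so its direction in Hep3B held at the higher counts only. In Hep3B, 23 of the 36 control guides were higher and 13 lower, and in SNU-398 26 of 41 were higher and 15 lower. The SNU-398 receptor median was 0.014 without vehicle replicate 2, with the opposite sign.

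For comparison, guides to the RPL and RPS genes, which encode proteins of the cytosolic ribosome that dividing cells need, had a median change of -0.26 (n = 59) in Hep3B and -0.17 (n = 58) in SNU-398. Medians of other families not known for a role in liver cells varied. The taste receptors TAS2R had a median of -0.066 in Hep3B and -0.015 in SNU-398, the keratin-associated proteins KRTAP -0.096 and 0.0077, and the beta-defensins DEFB -0.034 and -0.017. Only 2 guides to vomeronasal receptors VN1R reached this level, with medians of 0.36 and -0.096. Guides to 13 genes that act with olfactory receptors or mark olfactory neurons had medians of -0.20 in Hep3B (n = 15) and 0.026 in SNU-398 (n = 11). Changes past 2-fold from T0 to vehicle were counted with the pseudocount, which understates the change of rare guides. In Hep3B they occurred in 0 of 36 control guides and 3 of 335 olfactory receptor guides (0.896%), beside 2.61% of all guides. In SNU-398 they occurred in 0 of 41 and 0 of 332, beside 0.0694% of all guides. The edgeR fits given below put further single guides of both lines past 2-fold. Among them were LacZ guide 22 (log2 fold change -1.01) and OR10H4 guide 1 (1.02) in SNU-398.

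By chromosome, the median change of olfactory receptor guides varied most where few guides were measured, and no difference between chromosomes was tested. Chromosome 11, which carries the largest clusters of these genes, held 569 of the guides in each line, to 154 genes. Its median change was -0.0045 in Hep3B (n = 160), beside -0.047 for other guides on that chromosome, and -0.0076 in SNU-398 (n = 154), beside -0.032. Chromosome 1, with 42 guides of this level in Hep3B and 46 in SNU-398, had medians of 0.059 and -0.015, beside -0.068 and -0.027 for the other guides there. Over chromosomes with at least 8 receptor guides of this level, medians ran in Hep3B from -0.21 on chromosomes 3 and 7 (n = 9 each, other guides -0.064 and -0.033) to that 0.059. Chromosome 12 had -0.17 (n = 17, other guides -0.051) and chromosome 9 -0.13 (n = 27, other guides -0.072). In SNU-398 they ran from -0.12 on chromosome 6 (n = 9) to 0.074 on chromosome 3 (n = 8). On chromosomes with at most 3 such guides, medians ran from -0.31 to 0.71 in Hep3B and from -0.26 to 0.60 in SNU-398.

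Guides to the same olfactory receptor gene did not move together. In Hep3B, 87 receptor genes had 134 pairs of guides with T0 counts of 200 or more, and 70 pairs (52.2%) moved in the same direction from T0 to vehicle, with a correlation of -0.012. In SNU-398, 69 of 139 pairs (49.6%) moved in the same direction, with a correlation of 0.095. Over all genes the corresponding shares were 51.8% in both lines, with correlations of 0.046 and 0.042. Pairs of guides to RPL and RPS genes were few, with 11 of 19 (57.9%) and 8 of 16 (50%) in the same direction.

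The change of a guide in one line also said little about the other. Over the 36 control guides with T0 counts of 200 or more in both lines, the correlation of the changes from T0 to vehicle was 0.22, and by the sign of the change alone 15 were higher in both, 6 lower in both and 15 opposite. Over 312 olfactory receptor guides it was 0.071, with 77 higher in both, 88 lower in both and 147 opposite. Over other guides the correlation was 0.099. The guides of a line share its libraries, so they are not independent.

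Guide by guide, many controls changed from T0 to vehicle beyond the spread between libraries. In the fit over the 16 libraries of Hep3B with edgeR's quasi-likelihood test, 46 of 84 control guides passed an adjusted p of 0.05 (Benjamini-Hochberg over all guides tested), 30 higher and 16 lower. For olfactory receptor guides it was 499 of 803, 230 higher and 269 lower. Over all 43947 guides tested, 63.1% passed, 26.3% higher and 36.8% lower, so the receptor guides (62.1%) were called about as often as guides in general and the control guides (54.8%) less often by count, with no test of that difference. By T0 count, 13 of 30 control guides from 200 to under 2000 passed (43.3%), beside 60.0% of all guides of that class, and 6 of 6 at 2000 or more, beside 66.7%.

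In SNU-398, 23 of 109 control guides passed, 14 higher and 9 lower, and 140 of 974 olfactory receptor guides, 67 higher and 73 lower. Over all 53043 guides, 14.4% passed, 6.5% higher and 7.95% lower. Without Erastin replicate 2 the common biological coefficient of variation fell from 0.215 to 0.0857, beside 0.0721 in Hep3B. The calls then rose to 58 of 116 control guides and 401 of 1055 olfactory receptor guides, beside 37.3% of all guides. Guides passed the filter on low counts partly through the groups in which they were high, so these shares do not stand for all members.

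LacZ guides 1, 2 and 3 were the most abundant control guides with vehicle, and all 3 rose in both lines. LacZ guide 1 had 761 and 739 CPM at T0 and 840 and 809 with vehicle in Hep3B, and 781 and 776 against 868 and 860 in SNU-398 (log2 fold change 0.095 ± 0.034 SE, adjusted p = 0.013, and 0.15 ± 0.042, adjusted p = 0.03). LacZ guide 2, which begins at position 2348, rose most of the 3, from 123 and 114 CPM to 198 and 185 in Hep3B (0.65 ± 0.050, adjusted p = 9.3e-19) and from 138 and 141 to 183 and 173 in SNU-398 (0.35 ± 0.069, adjusted p = 0.0072). LacZ guide 3 went from 119 and 116 CPM to 143 and 140 in Hep3B (0.23 ± 0.052, adjusted p = 0.00015) and from 126 and 128 to 153 and 156 in SNU-398 (0.28 ± 0.058, adjusted p = 0.0096). Vehicle lay above T0 without overlap for each of the 3.

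LacZ guides 1 and 3 begin at positions 2929 and 2915 and so share sequence. Among control guides with T0 counts of 200 or more, those with the largest fall in Hep3B were LacZ guides 25, 17, 13 and 20. LacZ guide 25 went from 7.98 and 7.60 CPM to 4.15 and 4.30 (-0.93 ± 0.31, adjusted p = 0.0075), and LacZ guide 17 from 13.3 and 13.9 to 8.63 and 7.28 (-0.80 ± 0.23, adjusted p = 0.002). LacZ guide 13 went from 19.6 and 17.8 CPM to 12.5 and 11.7, and LacZ guide 20 from 10.1 in both libraries to 6.92 and 6.53. T0 and vehicle did not overlap for any of the 4, although LacZ guide 25 no longer passed without replicate 1 of T0 or of vehicle (highest adjusted p = 0.063).

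The largest rises in Hep3B were those of LacZ guide 18, EGFP guide 1, LacZ guide 23 and LacZ guide 24. LacZ guide 18 went from 10.2 and 11.9 CPM to 20.6 and 20.7 (0.86 ± 0.13, adjusted p = 9.1e-08), and EGFP guide 1 from 22.3 and 21.1 to 38.1 and 36.2 (0.74 ± 0.089, adjusted p = 7.5e-11). LacZ guide 23 went from 8.28 and 10.8 CPM to 16.1 and 15.0. LacZ guide 24 was the guide with a large rise in both lines, from 7.12 and 6.65 CPM to 11.2 and 11.4 in Hep3B and from 11.2 and 9.78 to 15.8 and 17.4 in SNU-398 (0.66 ± 0.15, adjusted p = 0.00014, and 0.66 ± 0.19, adjusted p = 0.032).

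In SNU-398 the 4 control guides named for the lowest log2 changes included 3 luciferase guides. Luciferase guide 3 fell from 14.3 and 13.1 CPM to 6.82 and 6.14 (-1.08 ± 0.18, adjusted p = 0.0032), and LacZ guide 22 fell from 12.3 and 9.71 to 6 and 4.85 (-1.01 ± 0.25, adjusted p = 0.02). Luciferase guide 4 had 6.67 and 5.15 CPM at T0 and 3.28 and 3.03 with vehicle (-0.91 ± 0.50, adjusted p = 0.22), and luciferase guide 5 had 6.17 and 7.36 against 4.28 and 2.94 (-0.88 ± 0.30, adjusted p = 0.057), so neither passed. Without Erastin replicate 2 both did, at adjusted p = 0.0015 for each. Luciferase guides 4, 3 and 1 begin at positions 1021, 1028 and 1043, and guide 3 overlaps both of the others.

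Of the control guides named for the highest log2 changes in SNU-398, LacZ guides 21 and 24 passed and LacZ guides 30 and 29 did not. LacZ guide 21 rose from 8.69 and 9.23 CPM to 14.3 and 14.7 (0.69 ± 0.15, adjusted p = 0.01). LacZ guide 30 had 6.39 and 6.99 CPM at T0 and 9.55 and 11.2 with vehicle (adjusted p = 0.051), and LacZ guide 29 had 7.56 and 6.33 against 11 and 10.2 (adjusted p = 0.1). Without Erastin replicate 2 these passed as well (adjusted p = 0.0039 and 0.0053). Of the 16 guides named in SNU-398 for a large change, receptor guides included, all passed in that fit, whereas luciferase guide 3 was the only 1 that passed whichever T0 or vehicle library was left out of the full fit.

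The largest changes of single olfactory receptor guides, of which there were far more, exceeded those of control guides. In Hep3B, OR7G2 guide 1 fell from 6.99 and 6.21 CPM to 0.733 and 1.24 (-2.87 ± 0.40, adjusted p = 6.6e-09) and OR6C4 guide 1 from 7.25 and 8.84 to 1.71 and 1.32 (-2.39 ± 0.25, adjusted p = 7.2e-13). OR1M1 guide 2 rose from 5.13 and 6.43 CPM to 19.9 and 19.2 (1.74 ± 0.13, adjusted p = 4.1e-20) and OR8A1 guide 1 from 6.81 and 6.14 to 19.6 and 19.8 (1.55 ± 0.12, adjusted p = 9.1e-19). OR8B12 guide 2 also rose, from 5.82 and 5.99 CPM to 12.1 and 16.7. OR6C70 guide 1 fell from 8.91 and 8.44 CPM to 1.95 and 1.32.

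OR10R2 held both a large fall and a large rise in Hep3B. OR10R2 guide 1 fell from 6.81 and 8.77 CPM to 1.55 and 1.98 (-2.21 ± 0.39, adjusted p = 1.4e-06), while OR10R2 guide 3 rose from 5.78 and 5.11 to 12.5 and 12.9 (1.17 ± 0.25, adjusted p = 5.2e-05). Guides to 1 receptor gene thus moved in opposite directions in the same libraries.

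In SNU-398 the largest receptor falls were smaller, with OR6C75 guide 1 from 6.34 and 6.77 CPM to 1.18 and 1.73 (-2.21 ± 0.37, adjusted p = 0.0035) and OR1B1 guide 2 from 8.12 and 6.03 to 3.28 and 1.04 (-1.63 ± 0.36, adjusted p = 0.013). OR1E1 guide 2 fell from 7.60 and 7.36 CPM to 2.91 and 3.46, and OR9A2 guide 1 from 6.04 and 6.62 to 3.37 and 2.42. Both OR10H4 guides with a named change rose, OR10H4 guide 1 from 7.25 and 6.47 CPM to 15.4 and 12.5 (1.02 ± 0.24, adjusted p = 0.016) and OR10H4 guide 2 from 6.86 and 6.77 to 12.7 and 13.0 (0.91 ± 0.19, adjusted p = 0.0091). OR5P3 guide 1 rose from 9.08 and 9.45 CPM to 19.4 and 18.0 (1.01 ± 0.19, adjusted p = 0.005), and OR52D1 guide 2 from 7.86 and 9.16 to 14.0 and 18.2 (0.91 ± 0.24, adjusted p = 0.024).

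Every inhibitor was compared with the same 2 vehicle libraries of its line, so the 6 comparisons of a line are not independent. A call marks a difference from these vehicle libraries, and whether the inhibitor or drift between cultures set it was not tested. In Hep3B, 62 of 84 control guides and 559 of 803 olfactory receptor guides were called with Sorafenib in the edgeR fit, beside 68.3% of all guides tested. Calls were 57 and 557 with Abemaciclib (66.9% of all), 52 and 526 with Lenvatinib (64.3%), and 50 and 516 with Erastin (61.1%). They were 45 and 472 with Palbociclib (58%) and 52 and 433 with Regorafenib (54.4%). The order of the inhibitors by receptor calls, from Sorafenib down to Regorafenib, was that over all guides.

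In SNU-398 the counts were lower and spread further between inhibitors. With Lenvatinib, 48 of 109 control guides and 417 of 974 olfactory receptor guides were called (45.4% of all guides). The counts were 42 and 396 with Regorafenib (40.7%), 36 and 345 with Sorafenib (36.4%), and 33 and 220 with Erastin (24.7%). They were 15 and 126 with Palbociclib (13.6%) and 3 and 20 with Abemaciclib (2.95%). Without Erastin replicate 2 they were 66 of 116 and 589 of 1055 with Lenvatinib (58.1% of all guides), 64 and 578 with Regorafenib (55.4%), 56 and 545 with Sorafenib (50.3%), 50 and 415 with Erastin (39.8%), 34 and 337 with Palbociclib (32.7%), and 16 and 196 with Abemaciclib (22.6%). Abemaciclib thus had the fewest calls in SNU-398 with or without that library, and the second most among receptor guides in Hep3B.

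The split between higher and lower calls depended on the scaling in the inhibitor comparisons. With TMM factors, 44% to 56.1% of the called control guides and 39.9% to 46.1% of the called receptor guides were higher in Hep3B. With library sizes set to the summed receptor counts these were 26.2% to 41.7% and 27.8% to 34.8%, and the median of all guides moved by -0.17 to -0.41 on the log2 scale. In SNU-398 the range of higher calls among receptor guides went from 38.8% to 70% with TMM to 31.3% to 44.4%, and among control guides from 45.2% to 66.7% to 35.7% to 66.7%. From T0 to vehicle the split moved by less than 10 percentage points in both lines.

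Of the 84 control guides tested in Hep3B, 75 (89.3%) were called with at least 1 inhibitor, 9 with none and 17 (20.2%) with all 6, beside 89.8% and 18.0% of all guides tested called at least once and with all 6. Of those 17, 13 moved in the same direction each time, 7 higher and 6 lower, which was 15.5% of control guides beside 13.8% of all guides. Another 31 (36.9%, beside 32.4%) were called higher with one inhibitor and lower with another. In SNU-398, 88 of 109 (80.7%, beside 80.2%) were called at least once, 21 never, 0 with all 6 (beside 0.239%) and 12 in both directions (11.01%, beside 12.2%). These SNU-398 counts are from the fit that includes Erastin replicate 2. Abemaciclib called 3 of the 109 there, so at most those 3 could be called with all 6. The control guides were thus called about as often as guides in general by count, with no test. These counts share the vehicle libraries, so each vehicle value enters all 6 comparisons.

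LacZ guide 1 was higher than vehicle with all 6 inhibitors in Hep3B. It had 840 and 809 CPM with vehicle, 1077 and 1045 with Sorafenib, 927 and 959 with Regorafenib, 947 and 939 with Lenvatinib, 989 and 990 with Erastin, 983 and 972 with Abemaciclib and 1025 and 1050 with Palbociclib. The log2 fold changes were 0.27 to 0.65 with TMM and 0.071 to 0.28 when scaled to the receptor guides, with 6 of 6 calls under both. In SNU-398 its inhibitor libraries ran from 796 to 972 CPM, on both sides of vehicle.

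EGFP guide 3 was also higher with all 6 inhibitors in Hep3B, with 18.0 and 15.7 CPM with vehicle, 25.8 and 23.5 with Sorafenib, 46.6 and 48.3 with Regorafenib, 30.1 and 27.2 with Lenvatinib, 26.3 and 23.3 with Erastin, 53.0 and 53.2 with Abemaciclib and 22.7 and 25.4 with Palbociclib. EGFP guide 6 had 1.87 and 2.31 CPM with vehicle and 2.90 to 8.63 over the inhibitor libraries, with 6 calls under TMM and 5 under both other scalings. The replicate libraries of each group lay close together beside these differences.

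The 6 control guides called lower with all 6 inhibitors in Hep3B had mean T0 counts of 3 to 110, and 3 of them are given here. EGFP guide 17 had 0.388 and 0.219 CPM at T0, 3.01 and 3.14 with vehicle, 0 in both libraries of 5 inhibitors and 0.528 and 0.893 with Palbociclib. LacZ guide 70 had 0.0431 and 0.146 CPM at T0, 1.47 and 1.16 with vehicle, 0.446 and 0.314 with Erastin and 0 in all other inhibitor libraries. For both guides the vehicle libraries were above T0 as well as above the inhibitors. Such guides enter the test through the group in which they are high, so calls against that group are given as a description. LacZ guide 37 had 2.98 and 2.70 CPM at T0, 1.87 and 2.31 with vehicle and at most 0.357 in any inhibitor library. A count of 3 corresponded to 0.0647 to 0.248 CPM in the T0 and vehicle libraries.

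In SNU-398, in the fit that includes Erastin replicate 2, the controls called most often were higher with at most 4 inhibitors. Luciferase guide 3, which had fallen with vehicle to 6.82 and 6.14 CPM, had 15.2 and 17.4 with Sorafenib, 14.3 and 15.6 with Regorafenib, 14.9 and 15.0 with Lenvatinib and 13.7 and 11.3 with Erastin, near its T0 values of 14.3 and 13.1. With Abemaciclib it had 8.75 and 7.47 CPM and with Palbociclib 7.36 and 6.14, near vehicle. LacZ guide 11 had 20.2 and 25.5 CPM with vehicle and up to 46.9 and 46.7 with Lenvatinib, and luciferase guide 1 had 35.1 and 37.0 with vehicle and 68.0 and 66.0 with Lenvatinib. Those lower most often, LacZ guide 85 with 4 inhibitors and EGFP guide 12 and LacZ guide 49 with 3 each, were again guides higher with vehicle than at T0. LacZ guide 85 had 0 and 0.0736 CPM at T0 and 0.910 and 0.865 with vehicle. EGFP guide 12 had 0.174 and 0.368 CPM at T0 and 2.37 and 0.692 with vehicle, and LacZ guide 49 had 0.434 and 0.441 against 2.00 and 0.865. Their lower calls are a description for the same reason.

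The spread of changes between guides was several times that between libraries of a group. In Hep3B the SD of the log2 change from vehicle to inhibitor over control guides was 0.44 to 0.68 (median 0.51), and over receptor guides 0.43 to 0.74 (median 0.60), beside 0.60 for the median over other guides. Between libraries of a group the SD had a median of 0.12 for control guides and 0.14 for receptor guides. The former were 4.09 and 4.18 times the latter. The former are differences between group means and the latter between single libraries, so these ratios, and those of SNU-398, set unlike measures side by side. In SNU-398 the medians were 0.34 and 0.35, which was 2.33 and 2.47 times the spread between libraries, leaving out the Erastin pair, whose own SDs were 0.43 and 0.44. For other guides in SNU-398 the median was 0.36 and the ratio 2.51.

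More guides passed 2-fold with inhibitors than with vehicle in Hep3B, taking guides with T0 counts of 200 or more. These changes were again computed with the pseudocount. With Sorafenib, 4 of 36 control guides (11.1%) and 58 of 335 receptor guides (17.3%) were past 2-fold from vehicle, beside 18.2% of all guides. The counts were 4 and 63 with Abemaciclib (18.8%, beside 16.04%), 2 and 44 with Lenvatinib (13.1%, beside 12.9%), and 1 and 32 with Erastin (9.55%, beside 7.68%). They were 0 and 9 with Palbociclib (2.69%, beside 5.76%), and 3 and 8 with Regorafenib (2.39%, beside 3.42%). In SNU-398, 1 of 41 control guides and 6 of 332 receptor guides passed with Lenvatinib (1.81%, beside 2.74%). The counts there were 0 and 8 with Regorafenib (2.41%, beside 1.47%), and 0 and 3 with Sorafenib (0.904%, beside 1.86%). With Erastin, Abemaciclib and Palbociclib 0 of either set passed there, beside 0.511%, 0.00991% and 0.173% of all guides.

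By the distance between groups, the Hep3B groups lay further from T0 than from vehicle. Over the 36 control guides, the SD of log2 differences was 0.33 between T0 and vehicle, 0.55 to 0.81 between T0 and the inhibitors, and 0.43 to 0.71 between pairs of inhibitors. SNU-398 differed in that Regorafenib and Lenvatinib were nearer to T0 (SDs 0.29 and 0.31 over 41 control guides) than to vehicle (0.41 and 0.43), and Abemaciclib was nearest to vehicle (0.18). T0 and vehicle themselves were 0.30 apart.

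At the level of genes, olfactory receptors served as a background for the gene scores. NormZ combines the changes of a gene's guides between inhibitor and vehicle into one score, with negative scores for depleted genes, and takes guides rather than cultures as observations. Its p is one-sided, from the nearer tail of a normal distribution, and genes past it in either direction were counted. The share that would pass without any effect is therefore the sum of both tails. In Hep3B the olfactory receptor genes past p under 0.01 were 7 of 337 with Sorafenib (2.44% of all genes past it), 5 with Regorafenib (2.66%), 7 with Lenvatinib (2.57%), 9 with Erastin (2.7%), 10 with Abemaciclib (2.55%) and 8 with Palbociclib (2.66%). In SNU-398 they were 6 of 338 with Sorafenib (2.64% of all genes), 4 with Regorafenib (2.27%), 9 with Lenvatinib (2.36%), 5 with Erastin (2.46%), 7 with Abemaciclib (2.42%) and 13 with Palbociclib (2.53%). Summed over the inhibitors, 46 of 2022 receptor scores (2.27%) passed in Hep3B, 23 low and 23 high, beside 2.59% of all scores. In SNU-398, 44 of 2028 (2.17%) passed, 16 low and 28 high, beside 2.45%. With only guides at a vehicle count of at least 30 scored, 15 of 1728 receptor scores (0.868%) passed in Hep3B, beside 1.74% of all scores, and 20 of 1644 (1.22%) in SNU-398, beside 2.13%. Receptor genes thus passed nearly as often as genes in general with all guides scored and less often by count with that filter, and neither difference was tested.

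In all, 64 of 338 receptor genes (18.9%) passed in at least 1 of the 12 screens, beside 19.8% of all genes. OR10G7 was low in 5 screens, all of Hep3B, with NormZ -3.06 for Sorafenib, -2.54 for Regorafenib, -3.20 for Lenvatinib, -2.68 for Abemaciclib and -2.64 for Palbociclib, and high with Regorafenib in SNU-398 (2.65). OR10R2, with the oppositely moving guides described above, was low in 3 Hep3B screens, at -3.08 for Sorafenib, -2.82 for Lenvatinib and -2.57 for Abemaciclib. OR2H1 and OR2L5 were high in 3 each, with OR2L5 at 3.39 for Lenvatinib, 2.90 for Palbociclib and 2.73 for Abemaciclib and OR2H1 at 2.43, 2.42 and 2.58. The repeated calls of these 4 genes all lay in Hep3B, where the screens share the vehicle libraries.

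Scored as if they were genes, the control targets were not at zero. In Hep3B the NormZ of LacZ, over 89 guides, was -2.17 for Sorafenib, -2.80 for Regorafenib, -2.29 for Lenvatinib, -1.15 for Erastin, -0.66 for Abemaciclib and -2.60 for Palbociclib. That of luciferase was 0.10 to 2.09, and that of EGFP -0.36 to 1.78. LacZ was thus below zero and luciferase above zero in all 6 Hep3B screens. In SNU-398 LacZ ran from -1.44 to 0.44, luciferase from 1.35 to 1.83 and EGFP from -2.30 to 0.75. The score sums over guides and divides by the square root of their number. A shift shared by all guides thus weighs more in LacZ than in a gene with few guides, and its part in these scores was not tested. By counts, the LacZ share in Hep3B was 0.180% to 0.219% with inhibitors (median 0.203%), beside 0.183% to 0.188% with vehicle.

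Genes that act with olfactory receptors or mark olfactory neurons were read alongside. The list held 13 genes, among them ADCY3, the adenylyl cyclase, CNGA2, a subunit of the cyclic nucleotide-gated channel, GNAL, the G protein alpha subunit, OMP, a marker protein of mature olfactory neurons, and RTP2, a receptor transport protein. Of 156 scores, 2 were low past p under 0.01 and 1 was high, in all 1.92%, beside 2.52% of the scores of all genes. OMP was low with Lenvatinib in Hep3B (-2.65), RTP2 was low with Abemaciclib in SNU-398 (-2.35), and PDE1C, a phosphodiesterase of the cilia, was high with Abemaciclib in Hep3B (2.52). CNGA2 and GNAL passed in none of the screens.

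RNA-seq of 3 wild-type Hep3B libraries, with 15905196 to 16851558 fragments assigned to genes, gave the level of the receptor genes themselves. All 338 receptor genes of the screens were in the table, and 305 (90.2%) had 0 counts in all 3 libraries. Levels are FPKM, counts per kilobase of gene and 1e+06 assigned fragments. Only OR51E2, at 2.60, 3.17 and 2.72 FPKM (2.83 ± 0.30, SD, n = 3), and OR2B6, at 1.06, 1.86 and 2.44 (1.79 ± 0.69), had a mean above 1. OR51B5 followed at 0.174, 0.137 and 0.0644 FPKM. In SNU-398 the receptor levels were not analysed here.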

How the data were processed

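Guide abundance was measured in 32 libraries of amplified guide DNA from Hep3B and SNU-398 cells. The count tables of the screens, deposited by the authors, hold whole numbers for each guide from Bowtie2 per the labels (its settings and the genome build of the guides: not given in the sources used here). The authors also deposited gene counts, for which the submitters' processing notes list HISAT2 2.0.5 and featureCounts 1.5.0-p3, and FPKM values scaled by gene length and assigned fragments, of which the wild-type Hep3B libraries were used. The deposited log2 fold changes and p-values of the PSTK-KO comparison were not used. The members and lists were chosen with earlier results of these data known.

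Each line was fitted with edgeR 4.0.16 in R 4.3.3 (TMM factors, filterByExpr, a quasi-likelihood test with group as the term over 16 libraries, 8 residual degrees of freedom). Called guides passed a Benjamini-Hochberg adjusted p of 0.05 over all guides tested. DESeq2 1.42.0 was an alternative, besides other scaling factors, no filter, a replicate block and leaving out each library. Changes were also computed as log2(CPM + 5), for guides with a mean T0 count of at least 200, using pandas 2.3.3, numpy 2.4.6 and scipy 1.17.1 under Python 3.11.15. Loss was a count of 0 in both libraries of a group. NormZ followed the steps of DrugZ, with counts scaled to 1e+07, a pseudocount of 5, a window of 1000 guides and libraries paired by number. The fits were tested on simulated data.

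Guides were named by rule: per line, the 3 control guides most abundant with vehicle, the 4 control and 4 receptor guides with the largest rise and fall from T0 to vehicle, the 3 control guides called most often in each direction with inhibitors, and receptor genes past p under 0.01 in 3 or more screens in one direction. Library totals of 11198022 to 46376708 counts set the precision, with a count of 3 equal to 0.0647 to 0.268 CPM.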

Additional observations from a re-analysis of the deposited data

Results flagged for a closer look

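The change of some named guides from T0 to vehicle went in opposite directions in the 2 lines, with both libraries of one line on one side of T0 and both of the other line on the other side. The difference between the lines was not tested for any of them. LacZ guide 17 had a log2 fold change of -0.80 in Hep3B and 0.38 in SNU-398, a difference of -1.18. LacZ guide 13 had -0.66 and 0.27, a difference of -0.93, and LacZ guide 22 had 0.40 and -1.01, a difference of 1.41. In SNU-398 the changes of LacZ guide 17 (± 0.18 SE, adjusted p = 0.16) and LacZ guide 13 (± 0.16 SE, adjusted p = 0.26) did not pass in the edgeR fit. All guides given here had been picked for a large change in at least 1 of the lines. Among olfactory receptor guides, OR6C70 guide 1 had -2.38 and 0.35, a difference of -2.74, OR10H4 guide 1 had -1.40 and 1.02, a difference of -2.42, and OR5P3 guide 1 had -0.43 and 1.01, a difference of -1.44. With 2 groups of 2 libraries for each line, no library was left over to serve as an independent check.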

How the results depend on the processing

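The replicate numbers did not pair the libraries: over the 28 pairs of groups of a line, same-numbered libraries deviated together with a median correlation of 0.0085 (Hep3B) or 0.015 (SNU-398), the highest being 0.15. With the replicate block, called control guides from T0 to vehicle were 15 in place of 23 in SNU-398, and no other count of calls moved by more than 1.5 times. Without a filter on low counts, 73 control guides were called from T0 to vehicle in Hep3B, in place of 46 of 84. More guides were tested without the filter, so the rise in the count is not a rise in the share called. DESeq2 called 7 control and 76 receptor guides for Abemaciclib in SNU-398, in place of 3 of 109 and 20 of 974. It was run without the same filter on low counts, so its guides tested differ. Its share of all guides called is not given here. Scaling to the receptor guides or by RLE factors moved none of these counts by more than 1.5 times.

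Leaving out single libraries, called control guides in SNU-398 ranged from 2 to 58 for vehicle against T0, 16 to 56 for Sorafenib, 24 to 64 for Regorafenib, 30 to 66 for Lenvatinib, 15 to 50 for Erastin, 0 to 16 for Abemaciclib and 0 to 34 for Palbociclib. Called receptor guides ranged from 5 to 401, 157 to 545, 195 to 578, 237 to 589, 94 to 415, 0 to 196 and 14 to 337 in the same order. The highest value of each was that without Erastin replicate 2, where the share called over all guides rose as well, as given above. The lowest ones came from leaving out a T0, vehicle or inhibitor library, which leaves a group with 1 library assumed to vary like the others. The number of guides tested differed between these fits, so the counts do not share a total. For Abemaciclib, edgeR called 0 control and 0 receptor guides without replicate 1 or 2 of vehicle or of Abemaciclib, beside 10 to 16 and 124 to 159 at an unadjusted p under 0.05. For Palbociclib it called 0 control guides without Palbociclib replicate 2, beside 23 unadjusted. Receptor genes past NormZ p under 0.01 in SNU-398 were 11 for Erastin without either replicate and 3 to 8 for Abemaciclib. Receptor guides lost, with only 1 library read, were 13.9% to 18.9% with vehicle and 23.1% to 25.1% at the median over inhibitors in SNU-398, and 46.7% at that median in Hep3B.

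Leaving out single libraries moved some median log2 changes by over 1.5 times. From T0 to vehicle the control median ranged from 0.069 to 0.11 in Hep3B and 0.055 to 0.14 in SNU-398, and the receptor median from -0.069 to -0.044 and -0.0098 to 0.014, where the SNU-398 value moved by over 1.5 times without any one of the 4 libraries and changed sign without vehicle replicate 2. Over inhibitors the control median ranged from -0.096 to -0.047 and 0.022 to 0.054 (in place of -0.088 and 0.033), with -0.047 found without inhibitor replicate 2 and 0.054 without vehicle replicate 1, while 0.022 and, from T0, the 0.055 were without vehicle replicate 2, and the receptor median from -0.060 to -0.045 and 0.028 to 0.044. The SDs from T0 to vehicle ranged from 0.33 to 0.34 and 0.30 to 0.32 for control guides and from 0.41 to 0.42 and 0.27 to 0.28 for receptor guides. The SDs over inhibitors ranged from 0.51 to 0.53 and 0.33 to 0.37 for control guides and from 0.60 to 0.61 and 0.35 to 0.39 for receptor guides.

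With T0 counts of 10 to under 100 as the class, vehicle had lost 52.1% of control and 49.1% of receptor guides in Hep3B and 26.8% and 21.1% in SNU-398. The medians over inhibitors were then 62.5% and 63.5% in Hep3B and 31.1% for receptor guides in SNU-398. With a summed count of at most 2 as loss, receptor guides lost were 30.8% with vehicle and 50.6% over inhibitors in Hep3B, and 16.01% and 25.1% in SNU-398.

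The median and spread of the changes depended on which guides were kept. With T0 counts of at least 20, the control medians were -0.028 in Hep3B and 0.050 in SNU-398 with vehicle, and -0.0084 and 0.015 over inhibitors, so the Hep3B vehicle median changed sign. The receptor medians were -0.11 and -0.045 with vehicle and -0.031 and 0 over inhibitors. The SDs were 0.33 (control, Hep3B) and 0.38 and 0.25 (receptor) with vehicle, and 0.47 and 0.32 (control) and 0.52 and 0.31 (receptor) over inhibitors. With T0 counts of at least 2000, the control medians were 0.38 and 0.22 with vehicle and 0.13 and -0.014 over inhibitors (both of the opposite sign), and the receptor medians were -0.037 with vehicle in Hep3B and 0.032 and 0.078 over inhibitors. The SDs were then 0.19 and 0.15 (control) and 0.24 and 0.15 (receptor) with vehicle, and 0.29 and 0.13 (control) and 0.30 and 0.18 (receptor) over inhibitors. Guides chosen by T0 replicate 1 and measured from T0 replicate 2 gave control SDs of 0.35 and 0.33.

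With a pseudocount of 0.5, the control medians were 0.11 and 0.12 with vehicle and -0.12 over inhibitors in Hep3B. The receptor medians were -0.052 with vehicle and -0.063 over inhibitors in Hep3B, and 0.044 over inhibitors in SNU-398. The SDs were 0.43 and 0.43 (control) and 0.63 and 0.38 (receptor) with vehicle, and 0.80 and 0.51 (control) and 0.98 and 0.50 (receptor) over inhibitors. Scaled to the receptor guides, the receptor medians were -0.062 and -0.031 with vehicle and -0.13 and -0.021 over inhibitors, and the control medians over inhibitors -0.13 and -0.026, so those of SNU-398 changed sign. The Hep3B SDs were then 0.33 (control) and 0.42 (receptor) with vehicle and 0.59 (receptor) over inhibitors.

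With only guides at a vehicle count of at least 30, receptor genes past NormZ p under 0.01 were 4, 0, 3, 3, 3 and 2 in Hep3B and 3, 2, 1, 3, 3 and 8 in SNU-398, for Sorafenib, Regorafenib, Lenvatinib, Erastin, Abemaciclib and Palbociclib, in all 0.868% of receptor scores beside 1.74% of all in Hep3B and 1.22% beside 2.13% in SNU-398. With a NormZ pseudocount of 1, Sorafenib gave 3 in SNU-398. Among the log2 changes of named guides under the alternatives, 256 kept their side of the threshold, 41 no longer passed it, 7 newly passed it, and none changed direction. Of those that no longer passed, all came from leaving out a T0 or vehicle library, and 2 were in Hep3B. The share ratios without LacZ guide 1, an alternative chosen after seeing the data, were 1.23 with vehicle and 1.31 at the mean over inhibitors in Hep3B, in place of 1.17 and 1.31, and 1.13 and 1.16 in SNU-398, in place of 1.12 and 1.14. The cause was not tested for any of these shifts. GC content and genome matches of the guides were not run, for want of guide sequences.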
